A study of Mus musculus with 3 samples.

Results

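Fc receptors bind the constant part of antibodies. The 6 genes described here were chosen by symbol among the 31053 genes of the expression matrix. They were Fcgr1, Fcgr3 and Fcgr4, which encode activating receptors for IgG, Fcgr2b, which encodes the inhibitory receptor for IgG, Fcer1g, which encodes the signalling chain that the activating receptors share, and Fcgrt, which encodes the heavy chain of the neonatal Fc receptor. Between sinusoidal endothelial-like and Kupffer-like cells the inhibitory and the activating receptors lay apart. Sinusoidal endothelial-like cells held Fcgr2b at 2585 CPM, against 14.6 CPM in Kupffer-like cells. The 3 activating receptors together were at 1049 CPM in Kupffer-like cells, against 3.86 CPM in sinusoidal endothelial-like cells. Other classes held both kinds: nonclassical monocyte-like cells had 946 CPM of activating receptors and 225 CPM of Fcgr2b. CPM here means UMIs (counted transcript molecules) of the gene per 1000000 UMIs of all cells of that class.

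As background, an activating receptor bound by an immune complex signals through the paired tyrosine motif (ITAM) of the FcRγ chain, the product of Fcer1g, and can start phagocytosis, degranulation or cytokine release. FcγRIIb, the product of Fcgr2b, carries an inhibitory motif (ITIM) that recruits lipid and protein phosphatases and damps those signals. In the liver it is best known as a receptor with which sinusoidal endothelial cells take small immune complexes out of the blood, while Kupffer cells, the resident macrophages of the sinusoids, phagocytose larger opsonised particles. The neonatal receptor, FcRn, binds IgG and albumin in acidic endosomes and returns them to the cell surface.

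The cells were sorted liver non-parenchymal cells of Ai14 mice, a reporter strain (LSL-Tomato) in which Cre recombination switches on tdTomato. They were taken 3 h after injection of 20a-LNP (lipid nanoparticles at 0.3 mg/kg of mRNA), of 20mix-LNP (the same dose) or of PBS, with 1 library per treatment. All groups share the reporter allele, and the sources used here do not say which populations the sort collected. The barcodes carry the suffixes 1, 2 and 3, and nothing used here ties a suffix to a treatment, so each library is named by its suffix and no effect of a treatment is reported.

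The matrix held 24111183 UMIs in 4638 barcodes, 6144949 to 9211407 UMIs per library. After removal of barcodes with few genes or a high mitochondrial share and of called doublets, 3207 cells remained, with a median of 5669 UMIs. Only 3 barcode sequences occurred in more than 1 library. Cells were assigned to 11 classes by raw UMIs of lineage markers, none of which is an Fc receptor. The gates took 2575 cells, 95 more passed a second gate and were set aside as mixed, and 537 passed none. In every gate the 10 leading genes by fold held at least 2 of its own markers and none of another gate. Cells were gated on those same markers and mixed cells were set aside, so this outcome was largely fixed in advance. It is no independent check of the labels, which rest on the gating markers and keep the ending "-like". Signal of other gates can also lie outside those 10 genes: plasmacytoid dendritic-like cells carried 668 CPM of the conventional dendritic 2 marker list. Kupffer-like cells carried 447 CPM of the nonclassical monocyte marker list. The classes ranged from 933 cells in the sinusoidal endothelial-like class and 572 in the NK or ILC1-like class to 47 B-like cells, and the 23 classical monocyte-like cells, below the minimum of 30 cells, are given only as a comparison for the other myeloid classes. There was no replicate of any treatment. Intervals in parentheses are exact 95% intervals for counting error only. No test was made over the libraries, and the ratio or level within each of the 3 libraries is given beside the main ratios.

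In sinusoidal endothelial-like cells Fcgr2b was at 2405, 2409 and 2718 CPM in libraries 1, 2 and 3, which pooled to 2585 CPM (2541 to 2629). It ranked 21 of 31053 genes by CPM in that class. Kupffer-like cells held 1, 1 and 10 UMIs of it, or 4.12, 4.26 and 29.1 CPM. The 2 classes did not overlap in any library. The ratio of sinusoidal endothelial-like over Kupffer-like cells was 177 (101 to 342), and it was 583, 565 and 93.5 in libraries 1, 2 and 3. Library 3 holds most of the few Kupffer-like UMIs, and without it the ratio was 574 (159 to 4740). Between these classes 34.0% of the 4458 genes at 50 CPM or more in either class were at least 2 times higher in sinusoidal endothelial-like cells. Among those genes Fcgr2b ranked 27 by ratio. Library 3 also held the most haemoglobin transcripts in sinusoidal endothelial-like cells, 4760 CPM against 13.7 and 108 CPM in libraries 1 and 2. Haemoglobin UMIs count in the total, which lowers the CPM of other genes. Any other tie to the higher Fcgr2b level of library 3 was not tested.

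Fcgr2b was found in most sinusoidal endothelial-like cells. When each cell was thinned to 2000 UMIs, 709 of 768 cells (92.3%, 90.2 to 94.1) had at least 1 Fcgr2b UMI, and before thinning 91.4% of 933 cells did. The share was 92.7%, 92.9% and 92.0% in the 3 libraries. The median was 5 UMIs per cell, the quartiles were 2 and 8, and the highest cell had 18. In T-like cells, which should lack the receptor, 0 of 88 thinned cells had a UMI. A floor of 3 counts there is a share of 3.41%, and the exact interval reaches 4.11%. Median depths before thinning were 5487 UMIs in sinusoidal endothelial-like and 5946 UMIs in T-like cells. Kupffer-like cells, with a median depth of 3046 UMIs before thinning, had a UMI in 4 of 129 cells (3.1%, 0.851 to 7.75). That interval runs past both limits, so these cells do not show whether Kupffer-like and T-like shares are alike.

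A second measure was the number of Fcgr2b UMIs per UMI of the 6 sinusoidal endothelial markers (Clec4g, Stab2, Kdr, Gpr182, Ptprb and Oit3). RNA released by endothelial cells into the droplets would carry both in the same proportion. These 6 markers also served as a gate. Cells of another class were set aside as mixed when a passing endothelial sum reached 25% of their leading sum. Endothelial marker UMIs were thus limited by each class's own marker sum, 10762 UMIs in 203 Kupffer-like and 1207 UMIs in 79 conventional dendritic 1-like cells. The part of this limit in the differences between classes was not tested. The value was 0.177 (0.174 to 0.181) in sinusoidal endothelial-like cells. It was 0.130 (0.0650 to 0.239) in Kupffer-like cells, an interval that holds the endothelial value. The intervals of T-like cells, at 0.0714 (0.00169 to 0.469), and ILC1-like cells, at 0.193 (0.0912 to 0.372), held it too. Whether the 12 Kupffer-like Fcgr2b UMIs are released RNA or expression was not tested. The endothelial markers were at 112 CPM in Kupffer-like cells, against 59.7 CPM in plasmacytoid dendritic-like cells, the next class outside the endothelium. The endothelial value lay outside the intervals of nonclassical monocyte-like cells at 11.4 (6.91 to 19.9), conventional dendritic 2-like cells at 11.4 (6.82 to 20.3), conventional dendritic 1-like cells at 5.27 (3.01 to 9.85), B-like cells at 1.25 (0.444 to 3.64) and plasmacytoid dendritic-like cells at 0.327 (0.248 to 0.428). Neutrophil-like cells, at 0.692 (0.261 to 1.75), and the NK or ILC1-like class, at 0.346 (0.215 to 0.542), also lay above the endothelial proportion.

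Outside the endothelium, and among classes of at least 30 cells, Fcgr2b was highest in nonclassical monocyte-like cells, at 167, 252 and 241 CPM in libraries 1, 2 and 3. Conventional dendritic 2-like cells had 155, 241 and 129 CPM, and the ratio of nonclassical monocyte-like over conventional dendritic 2-like cells, 1.14 (0.928 to 1.41), did not separate them. Conventional dendritic 1-like cells followed at 48.7, 76.5 and 49.7 CPM, and the ratio of conventional dendritic 2-like over 1-like cells was 3.15 (2.41 to 4.15), above 1 in each library. Below them neighbours in the order were not separated. B-like cells were at 48.6 CPM, neutrophil-like cells at 34.0 CPM and plasmacytoid dendritic-like cells at 19.6 CPM. Each neighbouring ratio had an interval that included 1, and ratios of classes further apart were not computed here. B cells are the textbook site of this receptor, where it opposes the antigen receptor, and the B-like value rests on 10 UMIs in 47 cells. The 23 classical monocyte-like cells had 461 CPM (378 to 556), and the ratio of nonclassical over classical monocyte-like cells was 0.488 (0.384 to 0.623), from 0.307 in library 1, where alone the classical class had 10 cells or more.

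Within the sinusoidal endothelium, gates on zonal markers split off 451 periportal and 138 pericentral cells. Fcgr2b was at 2503, 2299 and 2684 CPM in periportal-like cells of libraries 1, 2 and 3, against 1718, 2197 and 2341 CPM in pericentral-like cells. The ratio was 1.17 (1.11 to 1.24), and 1.46, 1.05 and 1.15 in the 3 libraries. All 3 libraries had the same direction, yet the lowest periportal value lay below the highest pericentral one. Per thinned cell the median was 5 UMIs in periportal-like and 3 UMIs in pericentral-like cells. Of 4033 genes, 2.13% were at least 2 times higher in periportal-like cells, and no member was.

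**Figure D1:**
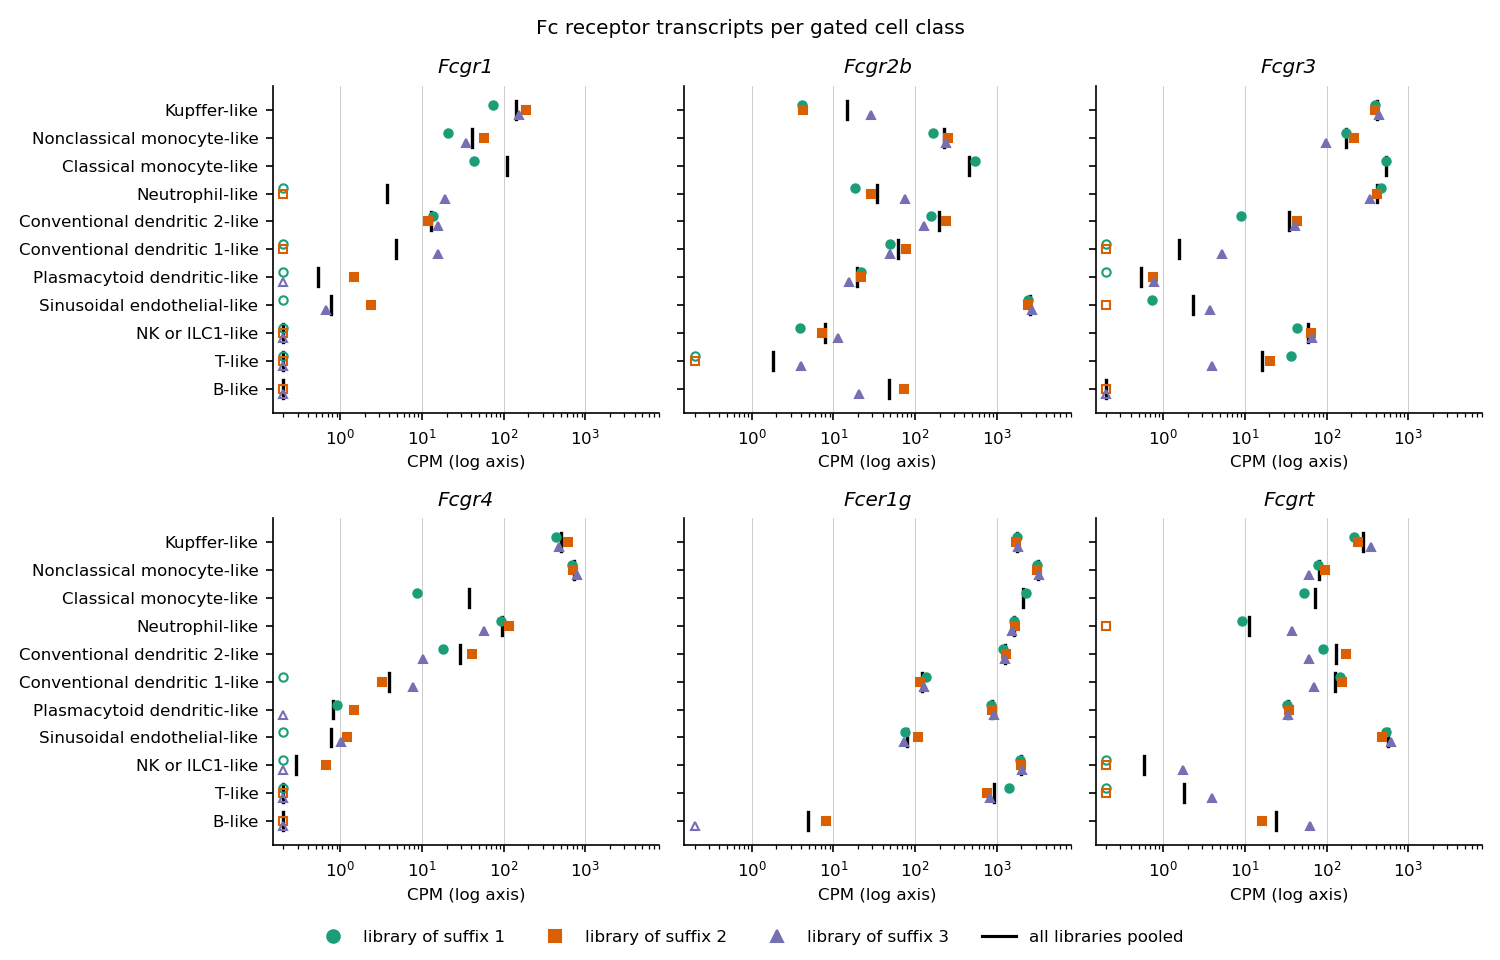
Level of each gene in the 11 gated classes, in CPM on a log axis. Coloured points are the 3 libraries (shown where a library had at least 10 cells of the class), black bars are the pooled values, and open points or bars at the left edge stand for 0. Fcgr2b stands out in sinusoidal endothelial-like cells at 2585 CPM, and Fcgr1, Fcgr3 and Fcgr4 lie near the left edge there.

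**Figure D2:**
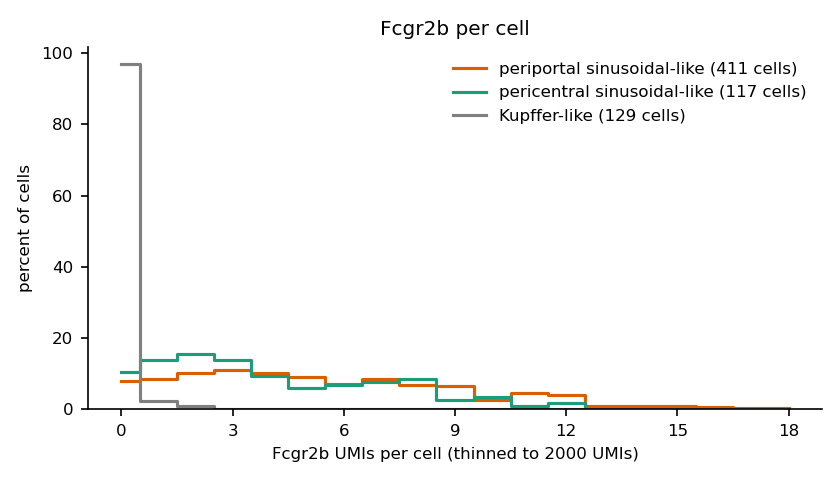
Distribution of Fcgr2b UMIs per cell after thinning to 2000 UMIs, as percent of the cells of each class. Periportal and pericentral sinusoidal-like cells spread up to 18 and 12 UMIs around medians of 5 and 3, and Kupffer-like cells lie almost all at 0.

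Fcgr1 encodes FcγRI, the receptor that binds monomeric IgG with high affinity. It was at 74.2, 188 and 154 CPM in Kupffer-like cells of libraries 1, 2 and 3. Sinusoidal endothelial-like cells had 0, 2.40 and 0.673 CPM. The ratio of Kupffer-like over sinusoidal endothelial-like cells was 182 (69.1 to 678), resting on 4 endothelial UMIs in 2 cells. Among thinned cells 24 of 129 Kupffer-like cells (18.6%) and 0 of 768 sinusoidal endothelial-like cells had a UMI. For that 0, a floor of 3 counts is a share of 0.391%, and the exact interval reaches 0.479%. With cells passing 2 gates kept in their leading class the ratio was 51.9 (29.7 to 98.0), and with thinned cells it was at least 59.5, against a floor of 3 counts over the endothelial class.

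Of the other classes, nonclassical monocyte-like cells had 20.8, 57.1 and 34.4 CPM of Fcgr1. Kupffer-like cells were 3.43 times higher (2.33 to 5.17), with 3.56, 3.29 and 4.48 in libraries 1, 2 and 3, and 7.27 times higher (2.56 to 28.4) with each cell thinned. Conventional dendritic 2-like cells had 13 CPM, and no UMI was found in 572 NK or ILC1-like, 90 T-like and 47 B-like cells. The 23 classical monocyte-like cells, at 110 CPM (71.8 to 161), were not separated from Kupffer-like cells: the ratio of Kupffer-like over classical monocyte-like cells was 1.27 (0.827 to 2.03). Fcgr1 had the fewest UMIs of the activating receptors, 328 in all kept cells, against 1325 UMIs of Fcgr3 and 1266 UMIs of Fcgr4.

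Fcgr3 encodes FcγRIII, a receptor for immune complexes that needs the FcRγ chain, and it was the activating receptor of the widest range. It was at 463, 414 and 343 CPM in neutrophil-like cells of libraries 1, 2 and 3, and Kupffer-like cells had 392, 388 and 436 CPM. The ratio of neutrophil-like over Kupffer-like cells was 1.03 (0.820 to 1.28), and the direction turned in library 3; TMM scaling, described with Fcer1g, gave 499 and 420 CPM in these classes. The level was lower in nonclassical monocyte-like cells, at 175, 215 and 98.9 CPM, and Kupffer-like over nonclassical monocyte-like cells gave 2.37 (1.95 to 2.90). Sinusoidal endothelial-like cells had 0.723, 0 and 3.70 CPM, 12 UMIs in 4 cells, and Kupffer-like cells were 177 times higher (100 to 346). Without library 3, which held 11 of those UMIs, the ratio was 864 (153 to 34322).

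NK or ILC1-like cells had Fcgr3 at 43.9, 64.0 and 65.5 CPM, and it made up 206 of their 207 activating receptor UMIs. This is the receptor through which NK cells kill antibody-coated targets. ILC1-like cells had 66.1 CPM, against 51.7 CPM in conventional NK-like cells, a ratio of 1.28 (0.857 to 1.97) that turned in library 1. In T-like cells Fcgr3 was at 16.2 CPM from 9 UMIs. Both dendritic classes outside the conventional dendritic 2-like gate, and the B-like cells, had at most 1.58 CPM.

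Fcgr4 encodes FcγRIV, a mouse receptor that binds the strongly activating IgG subclasses. Nonclassical monocyte-like cells of libraries 1, 2 and 3 had 696, 716 and 800 CPM, and Kupffer-like cells had 437, 606 and 471 CPM. The groups did not overlap, and the ratio of nonclassical monocyte-like over Kupffer-like cells was 1.47 (1.29 to 1.67), with 1.59, 1.18 and 1.70 in the 3 libraries. Kupffer-like cells also carried 447 CPM of the nonclassical monocyte markers, against 2498 CPM in nonclassical monocyte-like cells. The part of that signal in comparisons of these classes was not tested. In the 23 classical monocyte-like cells the level was 38.0 CPM, from 9 UMIs in 3 cells, and the ratio of nonclassical over classical monocyte-like cells was 19.3 (10.1 to 42.3). It was 11.4 without library 1, 34.0 without library 3 and 12.8 with thinned cells. In that pair 16.8% of 3486 genes were at least 2 times higher in nonclassical monocyte-like cells, and Fcgr4 was the only member among them. Fcgr4 was itself among the 10 leading genes of the nonclassical gate by fold, although it was no gating marker.

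Fcgr4 then dropped off in the remaining classes. Neutrophil-like cells had 92.7, 115 and 57.2 CPM, and Kupffer-like cells were 5.28 times higher (3.53 to 8.26). Conventional dendritic 2-like cells had 29.2 CPM, conventional dendritic 1-like cells 3.96 CPM, and the NK or ILC1-like, T-like, B-like, plasmacytoid dendritic-like and sinusoidal endothelial-like classes had under 1 CPM, each from 4 UMIs or fewer. In nonclassical monocyte-like cells, 85 of 125 thinned cells (68.0%) had an Fcgr4 UMI, against 64 of 129 Kupffer-like cells (49.6%) and 1 of 768 sinusoidal endothelial-like cells.

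The make-up of the activating UMIs differed between nonclassical monocyte-like, neutrophil-like and Kupffer-like cells. In nonclassical monocyte-like cells Fcgr4 gave 77.5% of the 812 activating UMIs (74.4 to 80.3), Fcgr3 18.2% and Fcgr1 4.31%. In neutrophil-like cells Fcgr3 gave 81.0% of 137 UMIs (73.4 to 87.2) and Fcgr4 18.2%. In Kupffer-like cells all 3 receptors contributed: Fcgr4 gave 47.6%, Fcgr3 39.0% and Fcgr1 13.4% of 861 UMIs. The leading receptor of each of these classes was the same in all 3 libraries, with Fcgr4 at 72.4% to 85.7% in nonclassical monocyte-like cells, Fcgr3 at 78.2% to 83.3% in neutrophil-like cells and Fcgr4 at 44.4% to 51.3% in Kupffer-like cells. It did not set every myeloid class apart. The 23 classical monocyte-like cells had Fcgr3 at 78.5% of 163 UMIs (71.4 to 84.6), an interval that overlaps that of neutrophil-like cells. Conventional dendritic 2-like cells had Fcgr3 at 45.1%, Fcgr4 at 38.0% and Fcgr1 at 16.9% of 71 UMIs, and the interval of each share overlaps that of Kupffer-like cells. Between nonclassical monocyte-like and Kupffer-like cells, 20.4% of 3635 genes were at least 2 times higher in the monocytes. Of the members only Fcgr2b was (15.4 times, 8.61 to 30.3, or 52.2 times without library 3, against 12 Kupffer-like UMIs). In nonclassical monocyte-like over neutrophil-like cells, Fcgr2b, Fcgr4 and Fcgrt were, next to 37.1% of genes, and in neutrophil-like over Kupffer-like cells none was, next to 25.4%. In Kupffer-like over classical monocyte-like cells Fcgr4 and Fcgrt were, next to 21.8%. These counts describe the 3 libraries and are no test. The make-up gives shares of molecules, counted at the 3′ end, and need no correction for gene length.

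**Figure D3:**
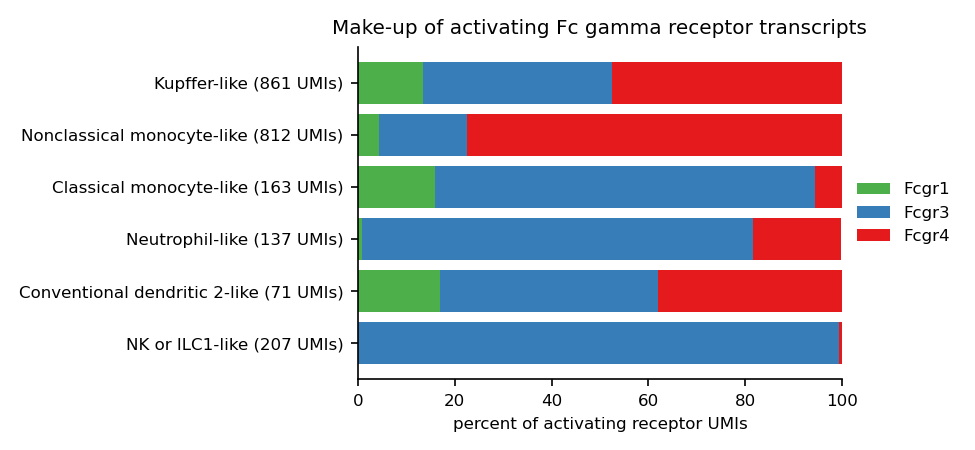
Share of Fcgr1, Fcgr3 and Fcgr4 in the summed activating receptor UMIs of 6 classes, in percent. Fcgr4 fills 77.5% of the bar in nonclassical monocyte-like cells, and Fcgr3 fills 81.0% in neutrophil-like and 99.5% in NK or ILC1-like cells.

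Fcgr2b, Fcgr4, Fcgr3 and Fcer1g lie together on chromosome 1. On GRCm38 (mm10; GENCODE M21), Fcgr2b spans chr1:170958617-170976547 on the minus strand, Fcgr4 chr1:171018920-171029761 on the plus strand, Fcgr3 chr1:171051174-171064935 on the minus strand and Fcer1g chr1:171229572-171234365 on the minus strand. Fcgr1 lies at chr3:96282909-96293969 and Fcgrt at chr7:45092990-45103851, both on the minus strand. Fcgr2b and Fcgr4 are neighbours in this list with opposite patterns in the sinusoidal endothelial-like and Kupffer-like classes. Fcgr2b and Fcgr3 share some 3′ sequence: 33 of 1467 words of 50 bases in the last 500 bases of Fcgr2b transcripts (2.25%) also occur in Fcgr3, while none of the words of the last 500 bases of the other members was shared. Annotated genes on the other strand overlap Fcgr2b (Gm38204, 0 UMIs) and Fcgrt (Gm45669, 3 UMIs).

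The starts of the 3 activating receptors, which were found together in Kupffer-like cells, were scanned for GAGGAAG or its reverse complement CTTCCTC, a form of the purine-rich element bound by ETS factors such as PU.1. Fcgr1, Fcgr3 and Fcgr4 each have 1 match in the 250 bases before a RefSeq transcript start, and Fcgr2b, Fcer1g and Fcgrt have none. The windows of Fcgr3 and Fcgr2b lie inside the GENCODE spans given above. This split therefore depends on which annotated start is taken, and windows before the GENCODE starts are not given here. Of all 32851 RefSeq promoter windows of that length, 10.6% hold a match. The last 100 bases before the start are shown for the 3 genes with a match (RefSeq, GRCm38.p6), 5′ to 3′ on the strand of the gene, with the match in capitals. They lie at chr3:96293970-96294069 on the minus strand for Fcgr1, chr1:171059404-171059503 on the minus strand for Fcgr3 and chr1:171018826-171018925 on the plus strand for Fcgr4. A match is a description of these letters and not a binding site, and no match says nothing about the factor.
Fcgr1: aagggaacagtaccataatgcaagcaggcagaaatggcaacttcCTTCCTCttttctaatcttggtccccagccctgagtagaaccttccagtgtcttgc
Fcgr3: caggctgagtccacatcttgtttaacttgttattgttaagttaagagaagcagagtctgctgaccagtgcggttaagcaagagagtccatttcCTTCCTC
Fcgr4: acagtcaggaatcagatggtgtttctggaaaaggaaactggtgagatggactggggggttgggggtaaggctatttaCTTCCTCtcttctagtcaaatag

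Set against each other in the same cells, the activating and inhibitory UMIs need no scaling between classes. Kupffer-like cells had 219, 277 and 365 activating UMIs in libraries 1, 2 and 3, against 1, 1 and 10 Fcgr2b UMIs, a pooled ratio of 71.8 (40.9 to 139). Without library 3 the ratio was 248 (68.3 to 2054). Sinusoidal endothelial-like cells had 1, 3 and 16 activating UMIs, against 3325, 2009 and 8076 Fcgr2b UMIs. There the inhibitory receptor exceeded the activating ones 670 times (434 to 1098). Activating over inhibitory UMIs came to 0.00149, or 0.000750 without library 3 and 0.00242 with called doublets kept.

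The pooled ratios of the other gated classes lay between these 2, except in B-like cells, which had 0 activating and 10 Fcgr2b UMIs, a ratio of 0 (0 to 0.446). Nonclassical monocyte-like cells had 812 activating and 193 inhibitory UMIs, a ratio of 4.21 (3.59 to 4.95), with 5.35, 3.93 and 3.88 in libraries 1, 2 and 3. Neutrophil-like cells had 137 and 9 UMIs, a ratio of 15.2 (7.79 to 34.0), or 23.0 without library 3 and 33.0 with thinned cells, and the 23 classical monocyte-like cells 163 and 109 UMIs, a ratio of 1.50 (1.17 to 1.92). The balance was reversed in the dendritic classes. Conventional dendritic 2-like cells had 71 activating and 182 inhibitory UMIs, a ratio of 0.390 (0.292 to 0.516), below 1 in each library. Conventional dendritic 1-like cells had 13 and 79 UMIs, and 6 of the 13 were Fcgr1 UMIs of 1 cell. Plasmacytoid dendritic-like cells had 7 and 73 UMIs. NK or ILC1-like cells had 207 and 27 UMIs, a ratio of 7.67 (5.12 to 11.9).

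**Figure D4:**
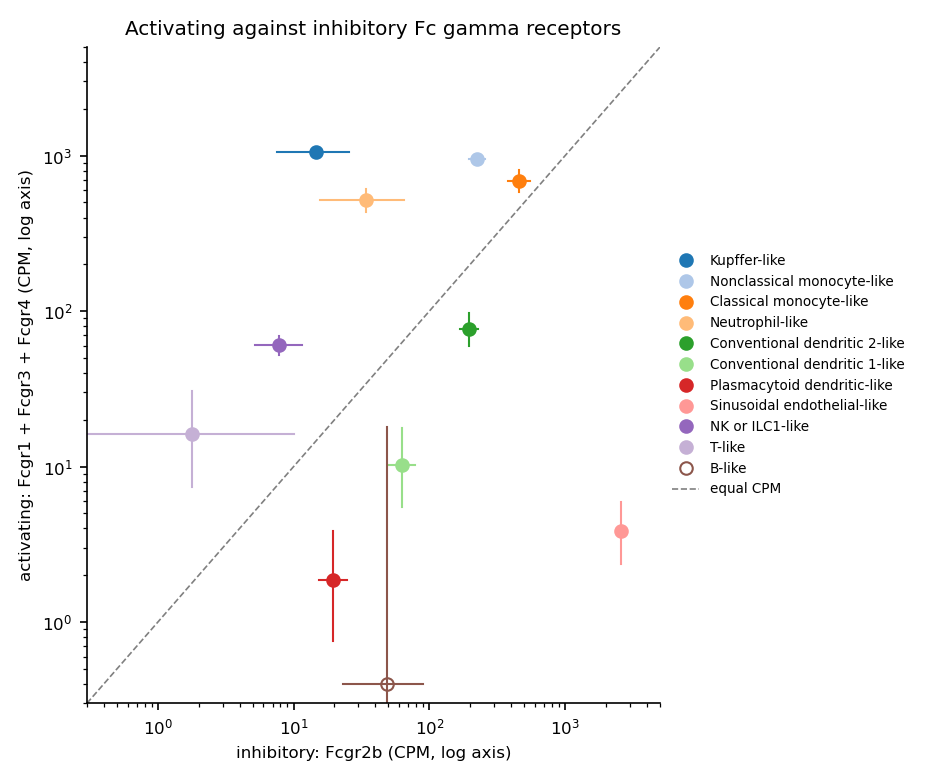
Summed activating receptors (Fcgr1, Fcgr3 and Fcgr4) against the inhibitory receptor Fcgr2b, in CPM per class on log axes, with exact 95% Poisson intervals. The dashed line marks equal CPM, and the open point on the lower edge stands for 0 activating UMIs in B-like cells. Kupffer-like cells lie far above the line at 1049 and 14.6 CPM, and sinusoidal endothelial-like cells far below it at 3.86 and 2585 CPM.

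Both kinds of receptor were found in the same cell most often among monocytes. After thinning to 2000 UMIs, 33 of 125 nonclassical monocyte-like cells (26.4%, 18.9 to 35.0) held both an activating and an Fcgr2b UMI, 60 (48.0%) held activating UMIs only and 4 (3.2%) Fcgr2b only. Of the 23 classical monocyte-like cells, 6 held both. Among Kupffer-like cells 97 of 129 (75.2%) held activating UMIs only and 4 (3.1%) both. Among sinusoidal endothelial-like cells 707 of 768 (92.1%) held Fcgr2b only and 2 both. Neutrophil-like cells held activating UMIs only in 38 of 64 cells (59.4%), and conventional dendritic 2-like cells held Fcgr2b only in 13 of 67 cells (19.4%). A cell without a UMI at this depth may still express the gene.

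**Figure D5:**
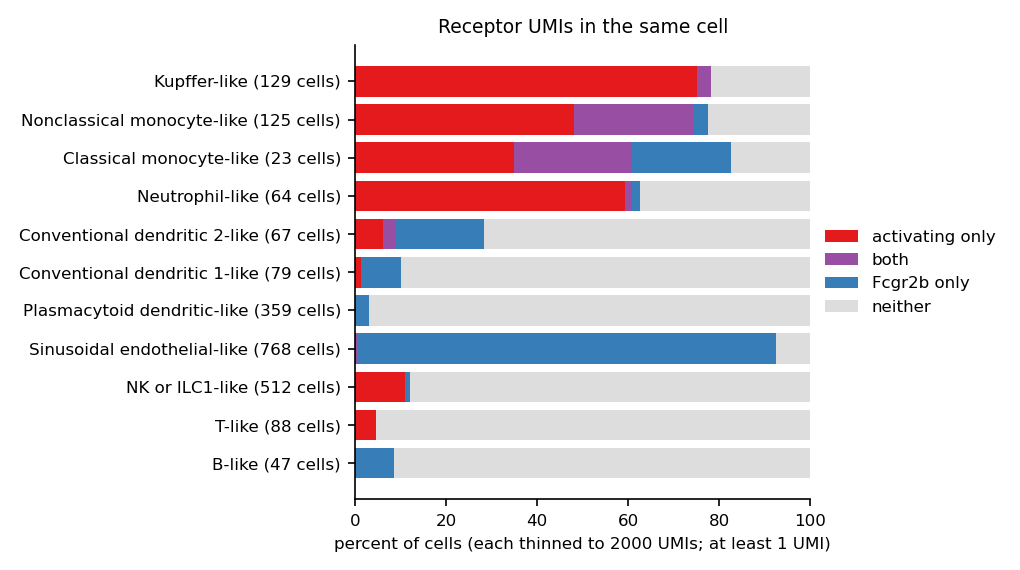
Percent of cells of each class with UMIs of activating receptors only, of both kinds, of Fcgr2b only or of neither, each cell thinned to 2000 UMIs. The share with both is 26.4% in nonclassical monocyte-like cells, 26.1% in the 23 classical monocyte-like cells and at most 3.1% in every other class.

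Fcer1g reached far beyond the classes with activating IgG receptors. It was at 3097, 3095 and 3324 CPM in nonclassical monocyte-like cells of libraries 1, 2 and 3, rank 34 of 31053 genes. NK or ILC1-like cells had 1914, 1981 and 2044 CPM, and the Kupffer-like class 1761, 1706 and 1797 CPM. These classes did not overlap, and the ratios between neighbours were 1.59 (1.52 to 1.66) for nonclassical monocyte-like over NK or ILC1-like cells and 1.13 (1.07 to 1.20) for NK or ILC1-like over Kupffer-like cells. Neutrophil-like cells, at 1608 CPM, were not separated from Kupffer-like cells, whose ratio over them was 1.09 (0.982 to 1.22). TMM scaling of the class sums, which relative to sinusoidal endothelial-like cells shifts log2 CPM by 0.20 for Kupffer-like, 0.42 for neutrophil-like and 0.07 for NK or ILC1-like cells, closes these smaller steps: it gave 1911 CPM for neutrophil-like, 1853 CPM for NK or ILC1-like and 1805 CPM for Kupffer-like cells, and 3155 CPM for nonclassical monocyte-like cells.

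The dendritic classes parted on this gene. Conventional dendritic 2-like cells had 1201, 1289 and 1268 CPM and plasmacytoid dendritic-like cells 855, 872 and 920 CPM, against 135, 114 and 128 CPM in conventional dendritic 1-like cells. The ratio over conventional dendritic 1-like cells was 10.3 (8.70 to 12.3) for conventional dendritic 2-like cells and 7.20 (6.13 to 8.52) for plasmacytoid dendritic-like cells, alike in every library. At least 2 times higher were 10.1% and 22.1% of all genes in these 2 comparisons. Plasmacytoid dendritic-like cells carried 471 Fcer1g UMIs per activating IgG receptor UMI (228 to 1173), against 1.68 in Kupffer-like, 3.1 in neutrophil-like, 3.34 in nonclassical monocyte-like and 33.0 in NK or ILC1-like cells. The plasmacytoid value rests on 7 activating UMIs, 5 of them in library 2, and without that library it was 1062 (294 to 8779) from 2 UMIs. FcRγ also pairs with receptors outside the IgG family, among them C-type lectins and natural cytotoxicity receptors.

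Among lymphoid cells, NK or ILC1-like cells exceeded T-like cells in Fcer1g, with 1914, 1981 and 2044 CPM in libraries 1, 2 and 3, against 1397, 768 and 818 CPM in T-like cells. The groups did not overlap, the ratio was 2.17 (1.98 to 2.38), and it was 1.37, 2.58 and 2.50 in the 3 libraries. In this pair 2.43% of 3339 genes were at least 2 times higher in NK or ILC1-like cells, and of the members Fcer1g and Fcgr3 were. The Fcer1g ratio fell below 2 with mixed cells kept (1.78), with thinned cells (1.97) and without library 3 (1.97). The T-like gate was not free of NK markers, which summed to 1908, 2007 and 1982 CPM in the NK or ILC1-like gate and to 671, 532 and 267 CPM in the T-like one. Its leading genes also included Trdc and Tcrg-C1 of γδ T cells. The part of either in the T-like Fcer1g level was not tested. ILC1-like cells had 2142 CPM of Fcer1g, against 1536 CPM in conventional NK-like cells, a ratio of 1.39 (1.30 to 1.50) with the same direction in each library. At least 2 times higher in ILC1-like cells were 7.52% of genes, and no member.

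Fcgr2b went the other way within that class. ILC1-like cells had 0, 4.94 and 6.79 CPM in libraries 1, 2 and 3, against 26.4, 14.1 and 54.7 CPM in conventional NK-like cells. The groups did not overlap, but the levels rest on 11 and 13 UMIs. The ratio was 0.192 (0.0780 to 0.465). Per endothelial marker UMI, conventional NK-like cells had 2.17 Fcgr2b UMIs (0.768 to 6.95), from 13 over 6 UMIs. ILC1-like cells had 0.193 (0.0912 to 0.372), from 11 over 57 UMIs, and sinusoidal endothelial-like cells 0.177. Whether the UMIs of either class are released RNA or expression was not tested.

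The lowest Fcer1g levels were in sinusoidal endothelial-like cells, at 74.5, 108 and 73.0 CPM, and in B-like cells, at 4.86 CPM from 1 UMI. Kupffer-like cells were 22.3 times higher than sinusoidal endothelial-like cells (19.9 to 24.9). The share of thinned cells with a UMI was 10.3% of 768 sinusoidal endothelial-like cells (8.23 to 12.7) and 2.13% of 47 B-like cells (0.0539 to 11.3), so at this depth the shares were not separated although the CPM intervals were. Hence 4 of the 6 members were at least 2 times higher in Kupffer-like than in sinusoidal endothelial-like cells (Fcgr1, Fcgr3, Fcgr4 and Fcer1g), next to 18.1% of the 4458 genes, and Fcgr2b and Fcgrt were at least 2 times higher in sinusoidal endothelial-like cells, next to 34.0%.

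Fcgrt was the second Fc receptor of the endothelium. It was at 219, 243 and 352 CPM in Kupffer-like cells of libraries 1, 2 and 3, while sinusoidal endothelial-like cells had 539, 475 and 611 CPM. The groups did not overlap. The ratio of Kupffer-like over sinusoidal endothelial-like cells was 0.494 (0.430 to 0.565), and 0.406, 0.512 and 0.576 in the 3 libraries. Fcgrt thus sat at the limit of being 2 times higher in the endothelium and did not reach it in libraries 2 and 3, without library 1 (0.530), without library 2 (0.505), with mitochondrial, ribosomal protein, hepatocyte and haemoglobin genes left out of the totals (0.517) or with TMM scaling (0.569, 0.496 to 0.651), although the ratio stayed below 1 in each. It did not follow the zones: periportal-like cells had 519 CPM and pericentral-like cells 566 CPM, a ratio of 0.918 (0.824 to 1.02).

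Conventional dendritic 2-like and 1-like cells had like Fcgrt levels, 130 and 127 CPM, a ratio of 1.03 (0.802 to 1.31). Nonclassical monocyte-like cells had 81.6 CPM and plasmacytoid dendritic-like cells 33.8 CPM. Neutrophil-like cells had 3 UMIs, T-like cells 1 and the 572 NK or ILC1-like cells 2, all at or under the floor of 3 counts. B2m, the light chain of FcRn, was present in every class, between 1418 CPM in B-like and 4670 CPM in nonclassical monocyte-like cells, while Fcgrt ranged between 0.582 and 570 CPM over the same classes.

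Other adaptors and receptors of the pathway were read from lists, of which the 4 genes with the highest level in any class are named. Of the adaptors, Tyrobp (DAP12) was at 4763 CPM in neutrophil-like cells, and plasmacytoid dendritic-like cells had 4062 CPM, Kupffer-like cells 1747 CPM and sinusoidal endothelial-like cells 27.8 CPM. Hcst (DAP10) and Cd247 (CD3ζ) were highest in T-like cells, at 805 and 91.7 CPM. The lectins and the paired receptor that use FcRγ were led by neutrophil-like cells. Clec4e (Mincle) was there at 1891 CPM, Clec4d at 1733 CPM and Clec4n (Dectin-2) at 412 CPM, whereas Pira2 was highest in Kupffer-like cells at 308 CPM. Plasmacytoid dendritic-like cells, high in Fcer1g, had 17.4 CPM of the 5 genes of that list together, and NK or ILC1-like cells 4.08 CPM.

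Of the 19 ITAM signalling genes, 13 were at 50 CPM or more in Kupffer-like or sinusoidal endothelial-like cells. In Kupffer-like cells 11 of them were at least 2 times higher, next to 18.1% of all 4458 genes, and 2 were at least 2 times lower, next to 34.0%, with a median log2 ratio of 2.54 for the 13 genes and -0.32 for all genes. Lyn, the Src family kinase that starts ITAM and ITIM phosphorylation, was at 809 CPM in Kupffer-like cells, against 130 CPM in sinusoidal endothelial-like cells. Fgr, of the same family, was at 175 CPM in Kupffer-like cells, against 4.05 CPM in the sinusoidal endothelial-like class. Fyn went the other way, at 35.3 CPM in Kupffer-like cells, against 507 CPM in the sinusoidal endothelial-like class.

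Of the 6 genes of inhibitory signalling, 5 were at 50 CPM or more in either class. Of these, 4 were at least 2 times higher in Kupffer-like cells, next to 18.1% of all genes, and none was at least 2 times lower, next to 34.0%, with a median log2 ratio of 1.12 for the 5 genes and -0.32 for all genes. The other one, Ptpn11 (SHP-2), was at 78.0 CPM in Kupffer-like cells, against 82.3 CPM in sinusoidal endothelial-like cells. Ptpn6 (SHP-1) was at 506 CPM in Kupffer-like cells, against 11.6 CPM in the sinusoidal endothelial-like class. Inpp5d (SHIP1), the lipid phosphatase that FcγRIIb recruits, was at 116 CPM in Kupffer-like cells, against 55.5 CPM in the sinusoidal endothelial-like class, and was highest in neutrophil-like cells at 250 CPM. Csk was highest in B-like cells at 243 CPM and Dok2 in NK or ILC1-like cells at 177 CPM.

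Of the 11 other Fc receptor genes, 9 had a UMI in some class. The 4 with the highest level all peaked in B-like cells: Fcmr, the receptor for IgM, at 763 CPM, Fcer2a, the low-affinity receptor for IgE, at 452 CPM, Fcrla at 257 CPM and Fcrl1 at 131 CPM. Fcrla was also at 115 CPM in plasmacytoid dendritic-like cells. Fcer1a and Ms4a2, the other chains of the high-affinity IgE receptor of mast cells and basophils, were at 0 in every class, so Fcer1g was found in these cells without them.

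Genes with the most similar pattern were sought among 6189 genes across the 10 classes with at least 30 cells, by Pearson's r of log2(CPM + 10), as a description without a test. Points share the libraries and the gates. Closest to Fcgr1 were Itgb5, C1qa, C1qb, Pla2g4a and C1qc, with r of 0.98 to 0.99. Closest to Fcgr2b were Adam15 (r of 0.95), Nostrin, Vwf, Tle1 and Nav1, down to 0.89. Fcgr3 was nearest to Vmp1, Pygl, Pgd, Lilrb4a and Oas3 (0.92 to 0.95), and Fcgr4 to Klra2, Csf1r, Pilrb2, Clec4a1 and Clec4a3 (0.96 to 0.99). Fcer1g was nearest to Tbc1d10b, Fyb, Cln3, H2-D1 and Ppp2ca (0.89 to 0.91), and Fcgrt to Tns3, Slc31a2, Slc7a7, Renbp and Parvb (0.93 to 0.97). Among the members, Fcgr1 and Fcgr4 (0.88) and Fcgr3 and Fcgr4 (0.84) were the most alike, and Fcgr2b was closest to Fcgrt (0.73).

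Many Fc receptor UMIs lay in cells outside the gates. Of 2919 activating UMIs in all kept cells, 557 were in the 537 cells that passed no gate, with 278 Fcgr2b UMIs, a ratio of 2.0 (1.73 to 2.32). These cells had a median of 2109 UMIs. Fcgr3 gave 55.1% of their activating UMIs, Fcgr4 24.4% and Fcgr1 20.5%. The 95 mixed cells, 42 of which passed the NK and T gates and 27 the conventional dendritic 2 and plasmacytoid gates, had 62 activating and 58 Fcgr2b UMIs.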

How the data were processed

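The values are raw UMI counts from 1 matrix deposited by the authors, whose header names Cell Ranger 3.1.0; the submitters' processing notes also name STAR, Seurat and edgeR, without versions or roles, and mm10. Cells with at least 200 genes and at most 20% mitochondrial UMIs were kept (1408 barcodes removed), and Scrublet, run per library, removed 23 doublets. A gate needed at least 3 UMIs from at least 2 of its markers; the class with the highest marker sum was taken, and a cell with a second passing gate at 25% or more of that sum was set aside as mixed. Zonal and NK or ILC1 subgates needed 2 UMIs and 3 times the other sum. Counts were summed per class and given per 1000000 UMIs, with exact Poisson intervals, exact conditional intervals for ratios and Clopper-Pearson intervals for shares; PCR duplicates are collapsed by UMIs, and the intervals and floors (3 counts) cover counting error only. For shares, each cell was thinned to 2000 UMIs and shallower cells were left out: 165 sinusoidal endothelial-like, 74 Kupffer-like, 60 NK or ILC1-like and at most 6 in any other class. Genes named are the 6 members, the 4 genes of each list with the highest CPM in any class and the 5 genes most like each member; Fcer1a, Ms4a2, Ptpn11, Trdc and Tcrg-C1 were named after their values were seen, and 1 listed gene that the rule names is not reported here. The members, lists, markers and gates were chosen with earlier results of these data known. Alternatives covered filters, gates, doublets, mixed cells, thinning, TMM scaling (edgeR 4.0.16), other totals and leaving out each library. Calculations used Python 3.11.15, scanpy 1.11.5, scipy 1.17.1 and R 4.3.3, and were tested on simulated data. Gene positions come from GENCODE M21 and promoters from RefSeq.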

Additional observations from a re-analysis of the deposited data

Results flagged for a closer look

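Barcodes removed by the cell filter, which enter no comparison above, were passed through the same gates and gave Fc receptor signal above the limit that a count of 0 allows (3 counts). The filter removed 306 barcodes that pass the sinusoidal endothelial gate and 69 that pass the Kupffer gate. Levels here are per 1000000 non-mitochondrial UMIs, since most were removed for their mitochondrial share. Fcgr2b was at 1618 CPM (1490 to 1754) in the removed sinusoidal endothelial-like barcodes, against 2806 CPM in the kept cells on the same scale, and Fcgrt was at 431 CPM, against 618 CPM. In the removed Kupffer-like barcodes Fcgr4 was at 518 CPM (387 to 679), against 553 CPM in the kept cells. Fcgr1 was at 39.8 CPM, against 155 CPM, Fcgr3 at 159 CPM, against 453 CPM, and Fcer1g at 757 CPM, against 1950 CPM. Fcgr4 thus stayed near its level in kept Kupffer-like cells while Fcgr1, Fcgr3 and Fcer1g lay lower, with intervals that exclude the kept value. The activating UMIs exceeded Fcgr2b by 72 to 1 UMIs there. What lowers those levels was not tested.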

How the results depend on the processing

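Of 84 recomputed main ratios, 72 moved by less than their counting interval, 12 moved further and none reversed; of 154 recomputed ratios added after seeing the data, 142, 12 and 0 did. Leaving out each library in turn gave 139 to 574 for Fcgr2b (sinusoidal endothelial-like over Kupffer-like), 144 to 264 for Fcgr1 and 144 to 864 for Fcgr3 (Kupffer-like over sinusoidal endothelial-like), 11.4 to 34.0 for Fcgr4 (nonclassical over classical monocyte-like), 1.97 to 2.52 for Fcer1g (NK or ILC1-like over T-like), 0.448 to 0.530 for Fcgrt (Kupffer-like over sinusoidal endothelial-like), 53.1 to 248 for activating over inhibitory UMIs in Kupffer-like cells and 0.000750 to 0.00188 in sinusoidal endothelial-like cells. The extremes 574, 864, 248 and 0.000750 were without library 3, which holds most UMIs of the term with few UMIs. That is the lower term of the ratio, except for 0.000750, where it is the upper one. With mixed cells kept, Fcgr1 came to 51.9 and Fcer1g to 1.78. With cells thinned to 2000 UMIs, Fcgr1 was at least 59.5 times higher, against a floor of 3 counts over the class, and Fcer1g 1.97 times. TMM scaling gave 0.569 for Fcgrt, and keeping called doublets gave 0.00242 for activating over inhibitory UMIs in sinusoidal endothelial-like cells. Apart from the library, gate and scaling choices named, the cause of these shifts was not tested. Among the added ratios, activating over inhibitory UMIs in conventional dendritic 1-like cells (13 over 79 UMIs) came to 0.0333 without library 3, 0.344 without library 2, 0.0641 with at least 5 marker UMIs and 0.571 with thinned cells. In plasmacytoid dendritic-like cells it came to 0 with thinned cells, from 0 over 11 UMIs, and Fcer1g per activating UMI was then at least 185, against the floor of 3 counts. The ratios within each library pair the classes by library; no test was run over those 3 pairs, for which an exact sign-flip test cannot go below p = 0.25.

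Depth limits the low levels: in Kupffer-like cells 3 counts correspond to 3.65 CPM and in B-like cells to 14.6 CPM. Fcgr2b in Kupffer-like cells and each of the 6 members in B-like cells rest on 12 UMIs or fewer. The gates compare cells of these 3 libraries and carry no estimate of the spread between animals.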
